A study of Homo sapiens with 13 samples.

Results

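The regions described here are the DNA-RNA hybrid loci that were mapped in U2OS cells whichever siRNA the cells had received. They are the peaks of the siCtrl list on chromosomes 1 to 22 and X that overlap, by at least 1 bp, both a peak of the siREXO4 list and a peak of the siRNaseH1 list. There were 1504 of them among 4458 siCtrl loci, or 33.7% (95% Wilson interval 32.4 to 35.1%). The interval covers counting error only. The knockdown lists are longer, with 12687 siREXO4 and 20954 siRNaseH1 peaks, and with all lists taken at equal length the count was 843. It was 586 with reciprocal overlap of at least 50%, 605 with a fold of at least 5 in every list and 711 with a −log10 q of at least 5 in every list. A siREXO4 peak was present at 41.7% of all siCtrl loci and a siRNaseH1 peak at 46.3%. Of the other siCtrl loci, 355 had a siREXO4 peak only, 558 had a siRNaseH1 peak only, and 2041 had a peak in neither knockdown. The loci in all 3 lists are called shared loci below.

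U2OS is a human osteosarcoma cell line. The cells were transfected with an siRNA against REXO4 (labelled REXO4 knockdown), against RNaseH1 (labelled RNaseH1 knockdown), or with a control siRNA (siCtrl, labelled WT). DNA-RNA immunoprecipitation sequencing (DRIP-seq) was done with S9.6, an antibody that binds DNA-RNA hybrids, with 3 IP libraries per transfection. The series also has 1 input library per transfection and, from siCtrl cells, 1 mouse IgG library, which makes 13 samples. The authors deposited 1 peak list per transfection, called on its merged IP libraries, so these values carry no replicate error, and the transfections were not tested against each other here. Peaks do not measure RNA or protein, so the knockdowns were not checked here. An IP from RNase H-treated DNA, the usual control for S9.6, is not among the samples used here.

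An R-loop forms when RNA pairs with its DNA template and displaces the other DNA strand. R-loops are known to form behind RNA polymerase II at promoters, where G-rich RNA stabilises the hybrid, and near transcript ends, as well as on ribosomal RNA genes, telomeric repeats and other heavily transcribed sequence. RNase H1 cuts the RNA of such hybrids, and helicases and topoisomerases limit them. REXO4 belongs to a family of predicted RNA exonucleases.

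Promoter sequence is shown for the strongest shared loci. It is printed for the first 6 genes in the ranking over all 3 lists whose promoter window a shared locus overlaps. Each window runs from 250 bases before to 50 bases after the annotated gene start. The siCtrl summits of these 6 loci lay outside the windows. The summit was at position -374 at SETD5 and 101 to 199 bp after the start at the other genes. The sequences are RefSeq's, of GRCh38.p14, read 5′ to 3′ in the direction of the gene. Capitals mark runs of 4 or more G on the printed strand, most of which lie before the start. Such runs are known to favour stable hybrids where they are transcribed, which here is the last 50 bases of each window.
HEXIM1 (chr17:45148225-45148524, plus strand): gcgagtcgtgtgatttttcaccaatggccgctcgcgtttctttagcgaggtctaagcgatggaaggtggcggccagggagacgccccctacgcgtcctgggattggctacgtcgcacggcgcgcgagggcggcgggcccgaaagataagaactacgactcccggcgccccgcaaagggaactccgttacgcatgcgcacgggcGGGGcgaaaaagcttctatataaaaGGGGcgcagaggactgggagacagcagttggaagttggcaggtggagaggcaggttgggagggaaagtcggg
JUND (chr19:18281573-18281872, minus strand): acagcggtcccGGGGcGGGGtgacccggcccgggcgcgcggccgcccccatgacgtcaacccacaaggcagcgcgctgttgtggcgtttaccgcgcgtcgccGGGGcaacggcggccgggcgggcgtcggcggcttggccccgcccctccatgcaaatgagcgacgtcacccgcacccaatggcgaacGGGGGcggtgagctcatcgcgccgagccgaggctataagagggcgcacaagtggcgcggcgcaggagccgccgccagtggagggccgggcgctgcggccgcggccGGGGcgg
EIF4A1 (chr17:7572575-7572874, plus strand): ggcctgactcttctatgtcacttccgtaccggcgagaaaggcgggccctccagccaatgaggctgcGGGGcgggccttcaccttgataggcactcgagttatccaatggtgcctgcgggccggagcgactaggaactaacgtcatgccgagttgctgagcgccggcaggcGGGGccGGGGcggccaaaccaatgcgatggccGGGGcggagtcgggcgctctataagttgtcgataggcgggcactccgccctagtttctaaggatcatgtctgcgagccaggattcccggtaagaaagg
SETD5 (chr3:9397365-9397664, plus strand): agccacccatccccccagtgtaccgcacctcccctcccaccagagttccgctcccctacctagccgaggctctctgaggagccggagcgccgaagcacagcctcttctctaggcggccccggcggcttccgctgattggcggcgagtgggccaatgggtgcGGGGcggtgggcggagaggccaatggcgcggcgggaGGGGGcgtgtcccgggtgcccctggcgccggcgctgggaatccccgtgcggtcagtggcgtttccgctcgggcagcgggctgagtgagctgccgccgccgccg
EPHA2 (chr1:16156020-16156319, minus strand): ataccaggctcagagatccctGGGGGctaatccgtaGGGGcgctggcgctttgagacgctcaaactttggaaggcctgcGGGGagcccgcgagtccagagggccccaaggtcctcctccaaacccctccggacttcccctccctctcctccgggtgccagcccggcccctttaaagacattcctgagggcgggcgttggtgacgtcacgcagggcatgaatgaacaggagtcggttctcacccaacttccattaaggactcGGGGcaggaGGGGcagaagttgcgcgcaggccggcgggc
H2BC5 (chr6:26157871-26158170, plus strand): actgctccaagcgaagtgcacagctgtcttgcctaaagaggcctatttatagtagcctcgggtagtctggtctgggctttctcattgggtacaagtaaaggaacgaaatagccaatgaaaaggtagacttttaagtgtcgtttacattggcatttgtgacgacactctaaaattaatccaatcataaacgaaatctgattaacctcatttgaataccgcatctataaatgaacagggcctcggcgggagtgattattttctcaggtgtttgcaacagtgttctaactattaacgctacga

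G over C skew, the excess of G over C divided by their sum, was highest in the HEXIM1 window (0.226) and lowest in the EPHA2 window (0.00518). In the 50 bases after the gene start, the skew was 0.733 at HEXIM1, 0.371 at EPHA2, 0.227 at JUND, 0.12 at EIF4A1, 0.105 at SETD5 and 0 at H2BC5. G was therefore in excess after the start in 5 of the 6 windows. The histone gene H2BC5 stood apart, with a GC content of 41.3% and 0 runs of 4 G, while JUND had a GC content of 77% and 5 such runs. The letters TATAA were found in the HEXIM1, JUND, EIF4A1 and H2BC5 windows.

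Over all promoters, those overlapped by shared loci were rich in GC and CpG. The 417 windows with a shared locus had a median GC content of 68.7% (quartiles 62.7 and 74.7%), against 58.7% (47.0 and 68.0%) for all 34789 windows. Among protein-coding genes alone, the medians were 68.7% for 356 windows and 62.3% for 22000 windows. The ratio of observed to expected CpG had a median of 0.898 in those 356 windows, against 0.737 in the 22000. GC skew in the 50 bases after the start had a median of 0.166 (0 and 0.312), against 0.0769 (-0.1 and 0.238). The shared-locus promoters were thus higher in all these measures, with wide overlap of the quartiles. GGGG in the gene's direction was present in 86.8% of the 356 windows (82.9 to 89.9%), against 81.1% of the 22000. CCCC, which is GGGG on the other strand, was present in 84.0%, against 78.8%. TATAA in the gene's direction was present in 12.9% (9.83 to 16.8%), against 12.4%. Over the windows of all gene types, GGGG was present in 87.1% of 417 and 75.1% of 34789. siCtrl loci with a peak in neither knockdown overlapped only 2 windows, so their promoters could not be compared. Chromosome 8 is not in the promoter table used here.

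The strength of the shared loci is given first, as a description, because presence in the 3 lists chose them. Fold enrichment is the authors' value at a peak's summit over its local background and is read only within 1 list. The shared loci had a median fold of 7.02 in the siREXO4 list, 9.20 in the siRNaseH1 list and 5.25 in the siCtrl list. Their median place within each list was percentile 81.2 in siREXO4, 89.3 in siRNaseH1 and 64.5 in siCtrl. Shared loci therefore stood higher among the peaks of each knockdown than among the control peaks, although the lists differ in length. In the siCtrl list the median fold was 4.72 for loci in neither knockdown, with a median width of 300 bp. The median width of shared loci was 784 bp in siREXO4, 877 bp in siRNaseH1 and 429 bp in siCtrl. The peak was wider in siREXO4 than in siCtrl at 75.5% of shared loci and wider in siRNaseH1 than in siCtrl at 80.5%.

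The rule also takes in weak overlaps. The smallest overlap of a shared locus was 1 bp in each knockdown list, and 19 shared loci were overlapped by under 50 bp in either list. Just outside, the nearest siCtrl locus without a siREXO4 or siRNaseH1 peak lay 1 bp from one. Within 1 kb of a peak there were 165 of the 2599 loci without a siREXO4 peak and 149 of the 2396 without a siRNaseH1 peak. Most shared loci lay on the same bases in all lists. The siCtrl summit was inside the siREXO4 peak at 92.1% of them and inside the siRNaseH1 peak at 93.4%. The median distance to the siCtrl summit was 85 bp for the siREXO4 summit and 81 bp for the siRNaseH1 summit, and 571 loci (38.0%) had all 3 summits within 100 bp. Of the 1504, 1448 met exactly 1 peak in each knockdown list. They met 1485 siREXO4 peaks and 1487 siRNaseH1 peaks, so a few neighbouring loci share a knockdown peak.

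Fragments piled up at a summit can be worked out as a whole number from the deposited fold and p-value of its peak. To set lists side by side, this number was divided by the lowest background of its list, which was 1.41 fragments in siREXO4, 1.36 in siRNaseH1 and 1.28 in siCtrl. This quotient is called summit coverage below. Its median over the shared loci was 15.6 in siREXO4, 26.5 in siRNaseH1 and 12.5 in siCtrl. The median ratio per locus was 1.23 for siREXO4 over siCtrl (quartiles 0.943 and 2.28) and 1.94 for siRNaseH1 over siCtrl (1.15 and 3.66). Coverage was above siCtrl at 1011 loci in siREXO4 and at 1242 in siRNaseH1. These values rest on merged libraries, and a locus had to be a peak in every list, which limits how far a ratio can lie below 1.

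The genes at the top of all 3 lists differed widely in this ratio. HEXIM1, whose protein with 7SK RNA holds the elongation kinase P-TEFb inactive, had 499 fragments at the summit in siREXO4, 828 in siRNaseH1 and 137 in siCtrl. Scaled for background, that was 3.30 times siCtrl in siREXO4 and 5.68 times in siRNaseH1. JUND, an AP-1 transcription factor gene, had 383, 924 and 121 fragments in siREXO4, siRNaseH1 and siCtrl, with ratios of 2.87 and 7.18. Coverage was thus highest in siRNaseH1 and lowest in siCtrl at both genes. EIF4A1, the gene of a translation initiation helicase, had 302 fragments in siREXO4, 712 in siRNaseH1 and 135 in siCtrl (ratios 2.03 and 4.96). SETD5, a chromatin regulator gene, had 443, 592 and 107 in the same order of lists (3.75 and 5.20). The SETD5 summit lay at position -374 relative to its start, and the locus also overlaps THUMPD3-AS1. The same order of lists was seen at EPHA2, an ephrin receptor gene (coverage 154 in siREXO4, 235 in siRNaseH1 and 61.9 in siCtrl), H2BC5 (ratios 1.92 and 3.25), MYL6, a myosin light chain gene (2.66 and 5.42), and NR4A1, an immediate early nuclear receptor gene (2.72 and 7.38). Except for SETD5 and NR4A1, the summits of the genes named so far lay 101 to 199 bp downstream of the annotated start.

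Coverage differed less between lists at other leading loci. A 633 bp locus inside HFM1, a meiotic helicase gene, had 406, 420 and 360 fragments in siREXO4, siRNaseH1 and siCtrl (chromosome 1, 91387033 to 91387665). Its ratios were 1.02 and 1.10, so the lists hardly differed there. LOC102724250 held the locus of highest coverage, with 4033 fragments in siREXO4, 4710 in siRNaseH1 and 3118 in siCtrl. Scaled for background, its coverage was 2862 in siREXO4, 3471 in siRNaseH1 and 2443 in siCtrl, so both knockdowns were above siCtrl, siRNaseH1 by a ratio of 1.42. That locus, on chromosome 1 from 629162 to 631504, covers the mitochondrial pseudogenes MTND1P23, MTND2P28 and MTCO1P12. Reads from mitochondrial sequence cannot be told apart there, because the treatment of reads that map more than 1 time is not given. Whether the sequence of the HFM1 locus matches repeats elsewhere was not examined. PTPRS, a receptor tyrosine phosphatase gene, differed from both. Its summit lay deep inside the gene (chromosome 19, 5308671 to 5309679), and its ratios were 2.09 and 6.53.

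**Figure D1:**
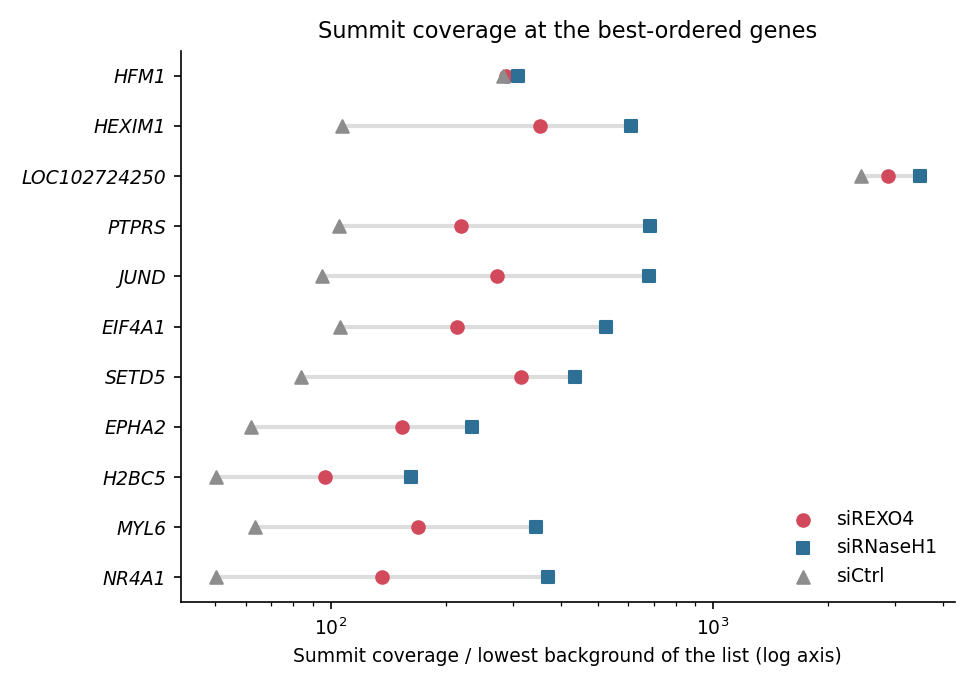
Summit coverage (fragments at the summit divided by the lowest background of the list, log axis) of 11 of the 12 protein-coding genes ranked highest in all 3 lists. Circles are siREXO4, squares siRNaseH1 and triangles siCtrl, each 1 value from merged libraries. Coverage at HEXIM1 is 354 in siREXO4, 610 in siRNaseH1 and 107 in siCtrl, while the 3 values at HFM1 lie between 282 and 309.

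Location was not used to choose the loci, and it set them apart from the other siCtrl loci. The summit lay within 2 kb of either boundary of an annotated gene at 782 of 1504 shared loci, or 52.0% (49.5 to 54.5%). This compares with 13.6% of loci in neither knockdown, a difference of 38.4 percentage points (95% Newcombe interval 35.5 to 41.3). It compares with 16.6% of loci with a siREXO4 peak only (difference 35.4 points, 30.5 to 39.7) and 22.8% of loci with a siRNaseH1 peak only (29.2 points, 24.8 to 33.4). Shared loci were less often inside genes away from a boundary (32.8%, against 55.3% of loci in neither knockdown) and between genes (15.2%, against 31.2%). Between genes, the share did not differ beyond counting error from loci with a siRNaseH1 peak only (16.1%, difference -0.903 points, -4.61 to 2.50). Loci are not independent samples of cells, so these intervals do not cover variation between cultures.

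The difference in location was present at each level of fold, with the siCtrl loci put into 4 groups of nearly equal size by their fold. In the lowest group, 51.9% of 310 shared loci and 17.1% of 580 loci in neither knockdown were near a boundary (34.9 points, 28.4 to 41.1). In the highest group the shares were 55.5% of 614 and 11.3% of 302 (44.3 points, 38.6 to 49.2). In the middle groups the difference was 35.1 and 35.9 points. Of the siCtrl loci in the highest group 55.1% were shared, and of those in the lowest 27.8%.

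**Figure D2:**
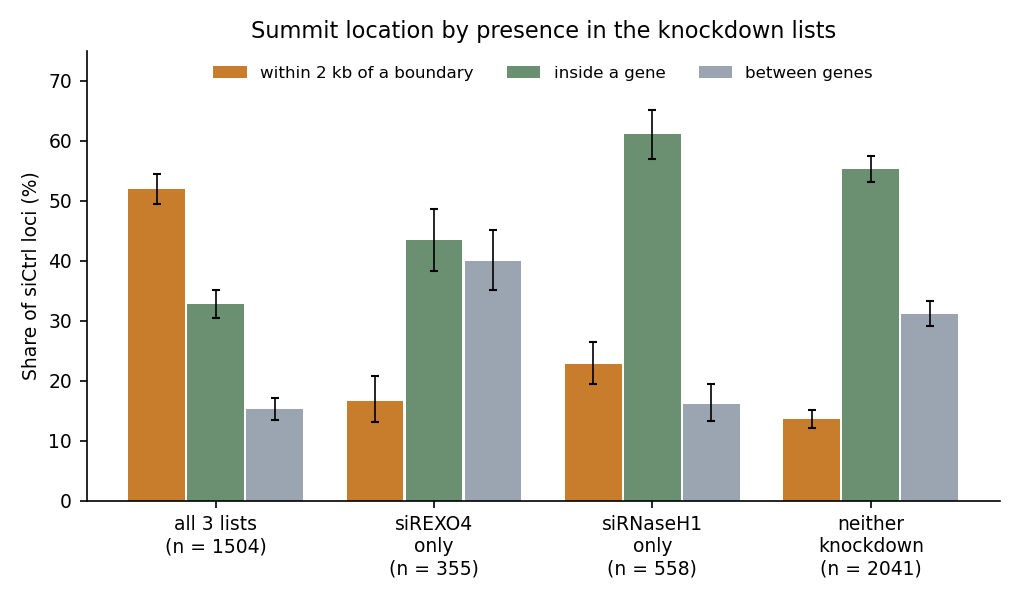
Share of siCtrl loci (%) whose summit lies within 2 kb of a gene boundary, inside a gene farther from a boundary, or between genes, for loci in all 3 lists and for the 3 other classes. Error bars are 95% Wilson intervals. Near a boundary the shared loci reach 52.0%, against 13.6% for loci in neither knockdown.

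Gene starts made up most of this. The direction of genes was taken from the promoter table, which left 1449 shared loci off chromosome 8. Starts and ends of genes not in that table were not counted here, so loci near them fall under elsewhere below. Of these, 464 (32.0%, 29.7 to 34.5%) lay within 2 kb of an annotated start, against 63 of 1903 loci in neither knockdown (3.31%, 2.60 to 4.21%). Another 133 (9.18%, 7.80 to 10.8%) lay within 2 kb of a gene end and of no start, against 3.31%. The share near an end did not differ beyond counting error from loci with a siRNaseH1 peak only (10.3%, difference -1.07 points, -4.30 to 1.75). Around the start the summits were concentrated on the transcribed side. Of the 464, 350 (75.4%, 71.3 to 79.1%) lay downstream of the start, with a median position of 156 bp after it and quartiles of 8.5 and 292 bp. Among the 63 loci in neither knockdown, 33 lay downstream.

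Read the other way, the control peaks just after gene starts were nearly all shared. Of 305 siCtrl loci with a summit 0 to 500 bp downstream of a start, 302 were in all 3 lists (99.0%, 97.1 to 99.7%). The other 3 comprised 1 with a siREXO4 peak only, 1 with a siRNaseH1 peak only and 1 in neither. Of the 570 loci within 2 kb of a start, 81.4% were shared. The share was 51.8% of 257 loci at gene ends and 25.3% of 3363 elsewhere.

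**Figure D3:**
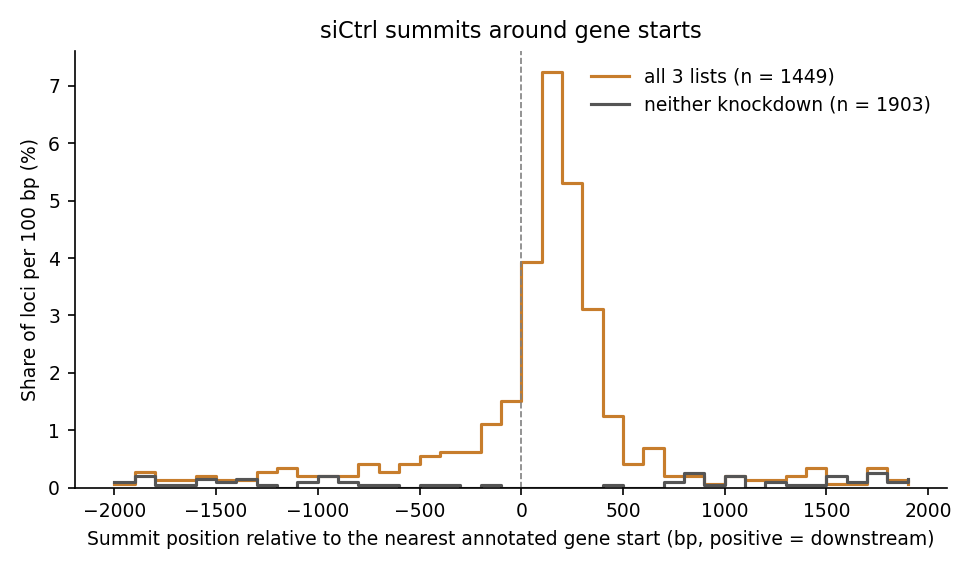
Share of siCtrl loci (%) per 100 bp bin of the distance between the siCtrl summit and the nearest annotated gene start, positive in the direction of transcription, chromosome 8 not included. Shared loci peak at 100 to 200 bp downstream, with 7.25% of 1449 loci in that bin, where none of the 1903 loci in neither knockdown lie.

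Summit coverage also went with location. At the 464 shared loci near gene starts, the median coverage was 41.2 in siREXO4, 58.9 in siRNaseH1 and 13.3 in siCtrl. The median ratio to siCtrl was 2.72 in siREXO4 (quartiles 1.85 and 3.91) and 4.31 in siRNaseH1 (2.79 and 5.84), and 319 of these loci (68.8%) reached a ratio of 2 in both knockdowns. At the 133 loci near gene ends, the median ratio was 1.13 in siREXO4 (0.868 and 1.39) and 2.04 in siRNaseH1 (1.57 and 2.74), and coverage was higher in siRNaseH1 than in siREXO4 at 124 of the 133. It was also higher in siRNaseH1 than in siREXO4 at 385 of the 464 loci near starts and at 601 of 852 elsewhere. The median of siRNaseH1 over siREXO4 was 1.81 near ends, 1.51 near starts and 1.28 elsewhere. Elsewhere the median ratios were 1.05 and 1.34 over 852 loci, some of them near boundaries of genes not in the promoter table. These ratios use the same lists that chose the loci and are a description without a test.

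RPL21, a large-subunit ribosomal protein gene, had one of the 3 lowest siREXO4 ratios. Its locus on chromosome 13, from 27255604 to 27255992, lay 308 bp from a gene boundary and 4276 bp after the start. It had 11 fragments in siREXO4, 49 in siRNaseH1 and 21 in siCtrl, with ratios of 0.474 and 2.19. At SRSF1, a splicing factor gene, a locus farther inside the gene had 12, 28 and 23 fragments in siREXO4, siRNaseH1 and siCtrl (0.472 and 1.14). Both were thus below siCtrl in siREXO4 and above it in siRNaseH1. At counts this small, counting error alone is large.

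Grouped by the gene boundary rule, which includes chromosome 8 and genes not in the promoter table, the order of the medians was the same. Outside the ribosomal RNA gene region, 759 loci within 2 kb of a boundary had median ratios of 1.95 in siREXO4 and 3.07 in siRNaseH1. The 491 loci farther inside genes had 1.06 and 1.57, and the 213 loci between genes had 1.01 and 1.13. A ratio of 2 in both knockdowns was reached at 47.8% of loci near a boundary (44.3 to 51.4%), 7.54% of loci inside genes (5.52 to 10.2%) and 5.16% of loci between genes (2.91 to 9.01%). The local background of the siCtrl list moved with these groups to a small extent, with medians of 2.22, 1.85 and 1.80 fragments. Its part in the ratios was not tested. Over the 1003 shared loci whose siCtrl background was at most 2 times the lowest, the median ratios were 1.21 and 1.82. They were 1.69 and 2.98 over the 400 loci at 2 to 5 times, and 0.994 and 0.958 over the 101 loci above 5 times. The ratios thus did not move in 1 direction with background. These groups include the loci of the ribosomal RNA gene region.

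**Figure D4:**
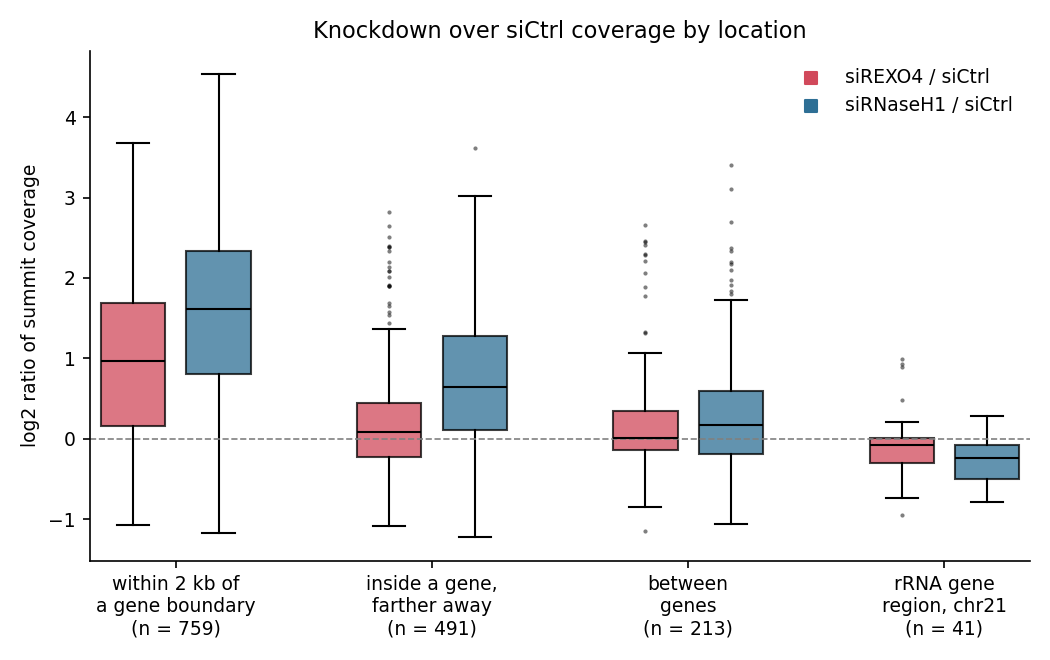
Ratio of summit coverage, knockdown over siCtrl (log2), for shared loci by location. Boxes span the quartiles with the median as a line, whiskers reach 1.5 times the box height and dots are loci beyond them. The median linear ratios near gene boundaries are 1.95 for siREXO4 and 3.07 for siRNaseH1, and in the ribosomal RNA gene region 0.945 and 0.849.

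The loci with the largest ratios had a siCtrl fold of 3.48 to 4.50, below the median of 5.25 over all shared loci. Their siCtrl fragments were not low as a group, at 11 to 21 against a median of 16. MROH1 (chromosome 8, 144148301 to 144148804) had 176 fragments in siREXO4, 121 in siRNaseH1 and 16 in siCtrl, with ratios of 9.96 and 7.11. DUSP2, a gene of a MAP kinase phosphatase, had 25 in siREXO4, 436 in siRNaseH1 and 21 in siCtrl at a locus 49 bp after its start. Its ratios were 1.08 and 19.5, so there the siREXO4 and siCtrl values were close and siRNaseH1 stood alone. Other high ratios came from knockdown summits elsewhere in a wider peak. In the flank of SCAF1, at a locus that overlaps RRAS, the ratios were 12.8 and 23.2 with knockdown summits 645 and 564 bp away. At EZR, the ezrin gene, they were 10.9 and 15.0 with summits 1285 and 1288 bp away. At FSCN2 the siRNaseH1 ratio was 19.7, with the summit at -2685 bp, towards ACTG1. At the low end for siRNaseH1 were RILPL1 (0.427), MIR4477B (0.444) and NBPF20 (0.470), and for siREXO4 a locus between genes on chromosome 22 (0.453). The low values rest on 9 to 17 knockdown fragments.

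The shared loci were found in 1063 of 19970 protein-coding genes (5.32%) when a gene and its 2 kb flanks are counted. Of the 2393 protein-coding genes with any siCtrl locus, these are 44.4%. A single gene could hold many. DCBLD2, the gene of a membrane receptor, a gene of 106 kb, held 10 shared loci, and YWHAZ, which encodes a 14-3-3 protein and spans 36.9 kb, held 10. VCL, the vinculin gene, held 7. The median ratios were 1.10 and 1.36 at DCBLD2, 0.917 and 2.09 at YWHAZ, and 0.962 and 2.12 at VCL. At YWHAZ and VCL coverage thus lay near siCtrl in siREXO4 and above it in siRNaseH1. The RNA45SN2 and RNA45SN3 ribosomal RNA genes held 7 each. In all, 163 protein-coding genes held at least 2 and 9 held at least 5. Counting only loci within 2 kb of a gene boundary, 694 protein-coding genes (3.48%) held one.

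Gene lists were read against that 5.32%, without a set test. The lists were not matched to other genes by length or expression. Ratios given for a gene of a list are those of its highest-ranked shared locus, called its leading locus, unless stated otherwise. Of 24 immediate early genes, which respond to growth signals within minutes, 15 held a shared locus, of the 16 with any siCtrl locus. Their 22 loci had median ratios of 2.00 in siREXO4 and 5.60 in siRNaseH1, against 1.23 and 1.94 over all shared loci. Of the 22, 18 lay near a gene boundary, where the medians over 759 loci were 1.95 and 3.07. The siREXO4 median was thus close to that of loci near a boundary. JUNB, another AP-1 gene, had ratios of 2.13 and 5.53 at a locus 22 bp after its start. DUSP1, a MAP kinase phosphatase gene, had 3.19 and 5.66.

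Of 28 cytoskeletal and housekeeping genes, 16 held a shared locus, which are all those with a siCtrl locus. Their median ratios were 1.52 and 3.91. GAPDH, a glycolytic enzyme gene, had ratios of 2.70 and 4.73, ACTG1, the gamma actin gene, 2.08 and 5.54, and PPIA, the cyclophilin A gene, 4.96 and 6.18. Coverage at the leading locus of each of these 3 genes was above siCtrl in both knockdowns. Another shared locus at ACTG1 was below siCtrl in siREXO4 (0.733) and above it in siRNaseH1 (1.61). At MYL12A (0.943), ENO1 (0.864) and ALDOA (0.805), named after their values were seen, the leading locus was below siCtrl in siREXO4. Of 47 splicing factor and hnRNP genes, 25 held a shared locus, of 29 with a siCtrl locus, with median ratios of 1.51 and 2.59. HNRNPL reached 7.07 and 7.00, SRSF7 3.24 and 5.84, HNRNPF 4.59 and 7.55, and SRSF2 3.15 and 5.81.

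Genes of the translation machinery came next by share. Of 36 translation factor genes, 16 held a shared locus, with median ratios of 1.18 and 2.40. EIF5A had ratios of 3.05 and 5.64, while EIF1, at its leading locus 3173 bp after its start, had 0.730 and 1.70. The other shared locus at EIF1 had 2.72 and 3.29. Of 79 cytosolic ribosomal protein genes, 35 did, of 40 with a siCtrl locus, with median ratios of 1.27 and 2.88. RPL41 had 2.32 and 4.53, RPL4 1.46 and 2.85, and RPS23 1.41 and 3.66. In these 2 lists 6 of 29 and 7 of 45 loci reached a ratio of 2 in both knockdowns, against 11 of 22 for immediate early genes. For siREXO4 the medians of both lists lay close to that of all shared loci, and for siRNaseH1 above it. However, 18 of the 29 and 38 of the 45 loci lay near a gene boundary. Over the 759 loci near a boundary the medians were 1.95 in siREXO4 and 3.07 in siRNaseH1, above those of both lists. A ratio of 2 in both knockdowns was reached at 47.8% of the 759.

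Of 17 heat shock and chaperone genes, 4 held a shared locus. These were DNAJB1 (2.97 and 4.58), HSP90AB1 (1.81 and 3.21), HSP90AA1 (3.73 and 5.59) and HSPA5 (0.906 and 3.16). Of 35 R-loop processing factor genes, 7 did, with 12 loci and median ratios of 1.43 and 2.72. They included DDX21, a nucleolar helicase gene (2.30 and 5.56), TOP1, the topoisomerase I gene (0.841 and 2.49), and DHX9, the gene of a helicase that unwinds hybrids (1.51 and 4.07). Of 20 p53 target genes, 4 did. GADD45A had ratios of 4.71 and 7.25. The ratios were 1.21 and 1.57 at MDM2, 0.975 and 1.66 at XPC, and 0.746 and 1.44 at GADD45B. Of 30 genes of other tissues, 1 did, at TG, the thyroglobulin gene (0.956 and 0.836), a share of 3.33%, near the 5.32% of all protein-coding genes.

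RNA genes were read against lncRNA genes, of which 247 of 18177 (1.36%) held a shared locus, or 40.8% of those with any siCtrl locus. Of 13 abundant lncRNA genes, 4 did. NEAT1, the RNA that builds paraspeckles, had ratios of 2.28 and 6.45, and MIR22HG had ratios of 4.35 and 6.33. MALAT1 held 4 shared loci, and its leading one had ratios of 1.91 and 2.18. TALAM1 is annotated antisense to MALAT1, and the lists carry no strand, so the 2 cannot be told apart. Of 18 snoRNA host genes, 3 did (SNHG15, SNHG12 and SNHG3), and of 14 short Pol III and 7SK-type RNA genes, 2 did (RN7SL1 and RN7SL2, which encode the signal recognition particle RNA). Of 16 loci often assayed for R-loops, 9 did, CIRBP among them (5.57 and 6.15). Most of these 9 are protein-coding genes, for which the share over all genes is 5.32%. Some genes are in more than 1 list, and a locus can be counted at more than 1 gene. The locus at RN7SL1 is also the only shared locus of RPS29 in the ribosomal protein list.

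**Figure D5:**
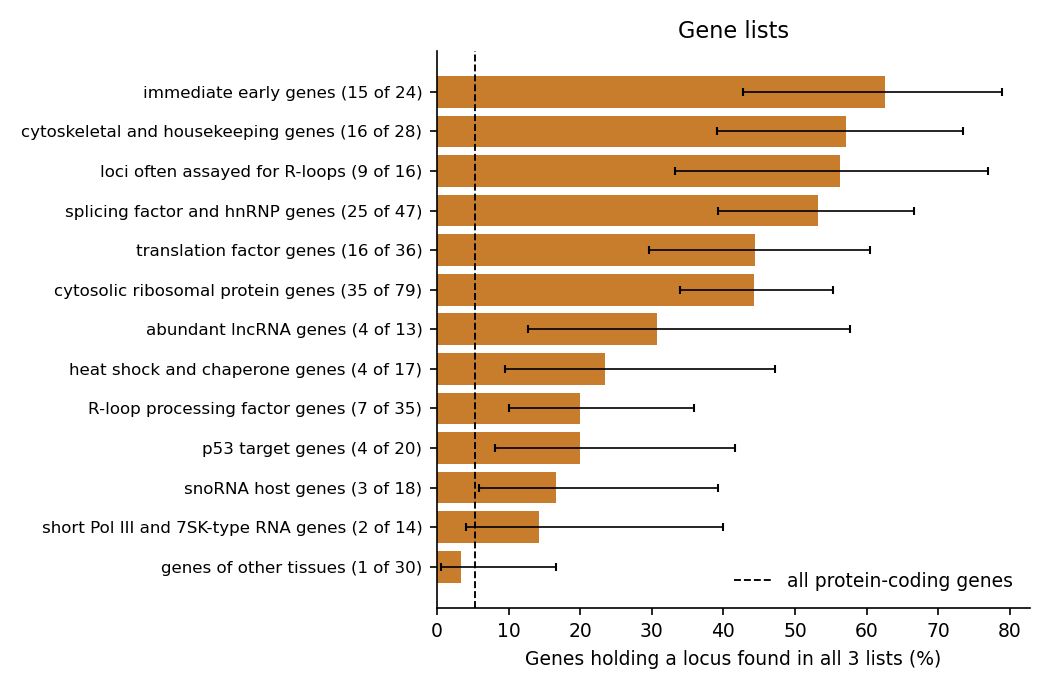
Share of genes in each list (%) that hold a shared locus in the gene or its 2 kb flanks, with 95% Wilson intervals and the number of genes. The dashed line is the 5.32% of all protein-coding genes. Immediate early genes reach 62.5% and genes of other tissues 3.33%.

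Spliceosomal RNA genes formed a compact group. Of 19 siCtrl loci on annotated snRNA genes, 17 were shared. On chromosome 17 the 13 shared loci between 43233580 and 43300820 lay on RNU2-1, a U2 RNA gene, and on 12 further annotated snRNA genes beside it. All 13 were above siCtrl in both knockdowns, with ratios of 1.60 to 2.79 in siREXO4 (median 1.96) and 1.91 to 3.81 in siRNaseH1 (median 2.74). The local background of the siCtrl list had a median of 10.5 fragments at these 13 loci, against 2.22 over all shared loci. Its part in these ratios was not tested. The 4 U1 genes RNU1-1 to RNU1-4 on chromosome 1 had median ratios of 1.83 and 2.24. These genes are near-identical copies, so reads may have been divided among them and the 17 loci are not independent.

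The ribosomal RNA gene region of chromosome 21, taken from 8203988 to 8448572, behaved otherwise. It held 41 shared loci of 47 siCtrl loci, and the widest shared locus of all, 6238 bp on RNA28SN1. That locus had 2305 fragments in siREXO4, 2771 in siRNaseH1 and 2518 in siCtrl. Over the region the median coverage was 348 in siREXO4, 255 in siRNaseH1 and 350 in siCtrl. The median ratio was 0.945 in siREXO4 (0.815 and 1.00) and 0.849 in siRNaseH1 (0.710 and 0.952), and none of the 41 loci reached a ratio of 2 in either knockdown. The local background of the siCtrl list had a median of 89.9 fragments there, against 2.22 over all shared loci, and its part in the ratios was not tested. The copies in this region are near-identical, so the 41 loci are not independent. The highest ratio in the region was 1.99, in siREXO4. Beyond its edge, a locus from 8458639 to 8462627, classed as between genes, had 87.4 background fragments in siCtrl and ratios of 1.05 and 0.629. The locus just before it exceeded a ratio of 2 in siREXO4 only. Loci on annotated rRNA genes, RNA5S genes of chromosome 1 included, had ratios of at most 1.28 in siREXO4 and 1.25 in siRNaseH1. Those RNA5S loci were counted as near a gene boundary.

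Loci at pseudogenes of mitochondrial origin and in the first 20 kb of a chromosome also stayed under a ratio of 2. Loci near the other end of chromosomes were not examined as a group. The 10 shared loci on such pseudogenes, of 15 siCtrl loci there, had median ratios of 1.05 and 1.39. Both siCtrl loci in the first 20 kb of a chromosome were shared. The one on chromosome 5, from 10010 to 11771, had 385 fragments in siREXO4, 355 in siRNaseH1 and 239 in siCtrl (ratios 1.46 and 1.40). The highest fold enrichment of a shared locus in the siRNaseH1 list (352) and in the siCtrl list (155) was at a 512 bp locus between genes on chromosome 13, from 109423980 to 109424491. In the siREXO4 list HEXIM1 was highest (177). The chromosome 13 locus had 1568, 2486 and 1443 fragments in siREXO4, siRNaseH1 and siCtrl, with ratios of 0.984 and 1.62. Not all strong loci between genes were so even. A 531 bp locus on chromosome 2, from 121075016 to 121075546, had 225, 416 and 37 fragments and ratios of 5.51 and 10.6. Whether the sequences of the chromosome 13 and chromosome 2 loci match repeats elsewhere was not examined.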

How the data were processed

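DRIP-seq of U2OS cells after siREXO4, siRNaseH1 or siCtrl transfection was analysed from 3 peak lists. The authors called peaks on the merged IP libraries of each transfection, per the labels and the names of the lists. Per the submitters' processing notes, the build was hg38 and the tools were MACS2 2.1.0.20150731, HISAT2 2.2.1, deepTools 3.5.1, Trim Galore 0.6.10, SAMtools 1.17 and Cufflinks. Not given in the sources used here were the options of the calls, their control library and the treatment of reads that map more than 1 time. The deposited values per peak are the fold enrichment (a ratio), the −log10 p-value and −log10 q-value of the summit, a score derived from the q-value, and the summit position. Depth is unknown. Signal tracks of single libraries, the inputs and the IgG included, are not analysed here.

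The loci are those on chromosomes 1 to 22 and X. Loci were compared by overlap of at least 1 bp. A member with several peaks in a knockdown list took the one of highest fold. In MACS2 output the fold is (fragments + 1) / (background + 1), while p is a Poisson tail, so 1 whole number of fragments satisfies both. This held within 0.001 in −log10 p for 12675 of 12687 siREXO4, 20942 of 20954 siRNaseH1 and 4447 of 4458 siCtrl peaks. The exceptions are very strong peaks, with a largest error of 0.00556. Genes, biotypes and promoter sequences came from RefSeq tables of GRCh38.p14. The region of rRNA genes runs from the first to the last such gene annotated on chromosome 21, with 2 kb on each side. Shares carry 95% Wilson intervals and differences 95% Newcombe intervals, which cover counting error only. The merged lists hold no replicate values, and transfections were not tested against each other.

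Named genes are the 12 protein-coding genes ranked highest by the lowest of their 3 within-list fold percentiles, the leading loci away from genes, the genes with most members, the widest members, up to 4 members per gene list, and the extremes of the coverage ratio. A few genes that these rules name are not reported here. The members, the 13 gene lists (of 365 symbols, 364 found) and the rules were chosen with earlier results of these data known. The code ran in Python 3.11.15 (SciPy 1.17.1, pandas 2.3.3, Matplotlib 3.10.9, NumPy 2.4.6) and was tested on simulated data. Alternatives comprised other overlap rules, stricter peaks, equal list lengths, other distances to genes and other scales for coverage.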

Additional observations from a re-analysis of the deposited data

Results flagged for a closer look

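Peaks on unplaced, unlocalised and alternate sequences were outside the comparisons above and also held shared signal. Of 165 siCtrl peaks there, 84 (50.9%) overlapped a peak of both knockdown lists, against 33.7% on chromosomes 1 to 22 and X. Of the 84, 41 lay on 1 unplaced and 1 unlocalised sequence. Alternate sequences repeat parts of the chromosomes, so these peaks are not independent of the loci described above.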

How the results depend on the processing

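The number of shared loci depended on the overlap rule and on peak strength. It was 1504 as reported and 586 with reciprocal overlap of at least 50% of both peaks, 711 with −log10 q of at least 5 in every list, 605 with fold of at least 5 in every list and 843 with each list cut to the length of the siCtrl list. It lay between 1306 and 1510 under the other 5 alternatives. The share near a gene boundary was 52.0%. It was 41.5% within 1 kb, 68.8% within 5 kb, 39.0% for protein-coding genes only, 45.2% with reciprocal overlap, 65.3% at fold of at least 5 and 55.6% with the siCtrl summit inside both knockdown peaks. Under the first 5 of these settings the loci in neither knockdown had 6.52%, 30.3%, 5.59%, 24.5% and 13.5%, so the direction of the difference held in each of them. Among alternatives chosen after seeing the data, it was 32.0% for gene starts only, and 46.2% and 55.5% in the second and the highest of 4 groups by fold, against 3.31%, 11.1% and 11.3% in neither. Protein-coding genes holding a shared locus numbered 694 when only the 2 kb around boundaries counted, against 1063. The median ratio for siREXO4, 1.23 as reported, was 1.29 on the background at the members, 1.36 unscaled, 1.65 where the 3 summits lay within 100 bp and 1.09 where the siCtrl background was at its lowest. For siRNaseH1, 1.94 as reported, the same settings gave 1.69, 2.06, 2.74 and 1.49. No ratio crossed 1. No paired analysis was possible because the deposited lists are merged over replicates, and for the same reason no replicate could be left out. The cause of these shifts was not tested.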

Other observations

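The shared loci were densest on chromosome 19, with 2.05 per Mb, and chromosome 17, with 1.91 per Mb, against 0.496 over all chromosomes and 0.0897 on X. As a share of the siCtrl loci of a chromosome, they made up 48.8% on chromosome 19 (42.6 to 55.0%) and 44.4% on chromosome 17 (39.4 to 49.6%), against 19.2% on chromosome 4 (13.9 to 25.8%) and 20.5% on chromosome 8 (16.1 to 25.8%). On chromosome 21 the share was 60.8%, and 44.9% (34.3 to 55.9%) without the ribosomal RNA gene region. On X 14 of 35 siCtrl loci were shared (25.6 to 56.4%), and over all chromosomes the share was 33.7%. Of 8 siCtrl loci on transfer RNA genes, 3 were shared.

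Coverage in siRNaseH1 exceeded that in siREXO4 at 1147 of 1504 shared loci, with a median ratio of 1.41. The share was 83.1% near gene boundaries, 378 of 491 farther inside genes, 56.8% between genes and 41.5% in the ribosomal RNA gene region.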
